A study of Saccharomyces cerevisiae with 8 samples.

Results

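Prp43 is a DEAH-box RNA helicase of budding yeast (Saccharomyces cerevisiae), and the libraries described here come from 1 strain in which its gene stands behind a GAL promoter. PRP43_Glu is that strain labelled for glucose, in which a GAL promoter is repressed, and PRP43_Gal is the same strain labelled for galactose, in which the promoter is active. Each group has 2 libraries, replicates A and B, so 4 of the 8 libraries of the series enter the comparison. The other 4 are Delta_Dbp3, labelled as a deletion of the helicase gene DBP3, and WT, with 2 libraries each. The labels name rich medium with glucose or galactose, or synthetic medium without leucine, and do not say which of these each library had, how long cells were kept in glucose or what was left of Prp43. Carbon source and promoter state change together between PRP43_Glu and PRP43_Gal and cannot be told apart. Biological duplicates are stated, and no label gives them a further origin.

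Ribose methylation of rRNA adds a methyl group to the 2'-hydroxyl of a sugar. Most of these groups are placed by box C/D snoRNPs, in which a small nucleolar RNA pairs with pre-rRNA and the methyltransferase Nop1 modifies the nucleotide paired to a fixed position upstream of the guide's D or D' box. Helicases such as Prp43 act on snoRNAs bound to pre-ribosomes, and Prp43 also takes apart spliceosomes after splicing. The study asked how helicases bear on snoRNP dynamics and on rRNA methylation.

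The measurement was RiboMeth-seq. Total RNA was cut by alkali, fragments of 20 to 40 nt were sequenced, and the ends of the reads were counted at every nucleotide. A methylated sugar resists the cut on its 3' side, so a methylated nucleotide has few read ends. The methylation score sets the read ends of a nucleotide against those expected from 6 neighbours on each side and is 1 minus that ratio. It runs from 0 (as many ends as the neighbours) to 1 (no ends), and 1 minus the score is called the unprotected share below. Scores were read at 55 annotated sites, 18 in 18S rRNA and 37 in 25S rRNA. A site is written with its base, m and its position, so Cm1007 is the C at position 1007 of 18S. Positions are those of the mature rRNAs in the deposited tables.

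PRP43_Glu replicates A and B held 5557319 and 7045005 read ends of 18S and 25S together, against 12390972 and 14191112 in PRP43_Gal. The share on 18S was 30.7% and 31.3% in PRP43_Glu and 33.9% and 32.3% in PRP43_Gal. The fewest expected read ends at any site were 262 in PRP43_Glu and 295 in PRP43_Gal. Reads carry no molecular identifiers, so such counts set counting error only.

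The sites at which methylation was most reduced in glucose lie in both rRNAs and have different guides. Their surroundings are shown with those of the sites that kept the highest scores, 10 nt on each side, from 5' to 3', with the methylated nucleotide in capitals and the letters as deposited. The first 8 are the largest falls that passed the test. Cm1007 and Gm1572 are in 18S and the other 6 in 25S.
Cm1007: gaucagauacCgucguagucu
Um1888: gauagaauaaUguagauaagg
Am1449: uggugguaguAgcaaauauuc
Am807: ugggacccgaAagauggugaa
Gm1572: gcucuucaacGaggaauuccu
Cm2948: ggaacgugagCuggguuuaga
Um2347: cccuaucuacUaucuagcgaa
Cm1437: uagugcagauCuuggugguag
The next 4 had the highest mean scores in PRP43_Glu. Cm1639 and Um1269 are in 18S and the other 2 in 25S.
Am2946: agggaacgugAgcuggguuua
Um2921: agcguuggauUguucacccac
Cm1639: guacacaccgCccgucgcuag
Um1269: uuguggguggUggugcauggc
Cm2948, among the largest falls, and Am2946, the site with the highest score, lie so close that their windows overlap. The windows of Cm1437 and Am1449, both targets of U24, overlap as well.

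In glucose, methylation was lower at 31 of the 55 sites and higher at 0 (0.0%; limma on the scores, adjusted p of 0.05). This is 56.4% of the sites, the share against which the counts of each group of sites below are to be read. No site had an unadjusted p under 0.05 in the upward direction, and 31 had one downward. The higher of the PRP43_Glu scores was under the lower of the PRP43_Gal scores at 39 sites (70.9%), the reverse held at 1 site (1.82%), and the groups overlapped at 15. With 2 libraries against 2 an exact permutation test cannot go below a two-sided p of 0.333, so the calls rest on the spread that limma pools over all 4 groups of the series.

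The median score over the 55 sites was 0.817 and 0.810 in the 2 PRP43_Glu libraries, against 0.940 and 0.949 in the 2 PRP43_Gal libraries. A mean score of at least 0.9 was found at 16 sites in PRP43_Glu and at 43 in PRP43_Gal. A mean under 0.5 was found at 9 sites in PRP43_Glu and at 0 in PRP43_Gal. Duplicates differed by a median of 0.0253 in PRP43_Glu and 0.0187 in PRP43_Gal, and the widest gap between duplicates was 0.320 at Am619 in PRP43_Glu and 0.214 at Cm414 in PRP43_Gal.

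**Figure D1:**
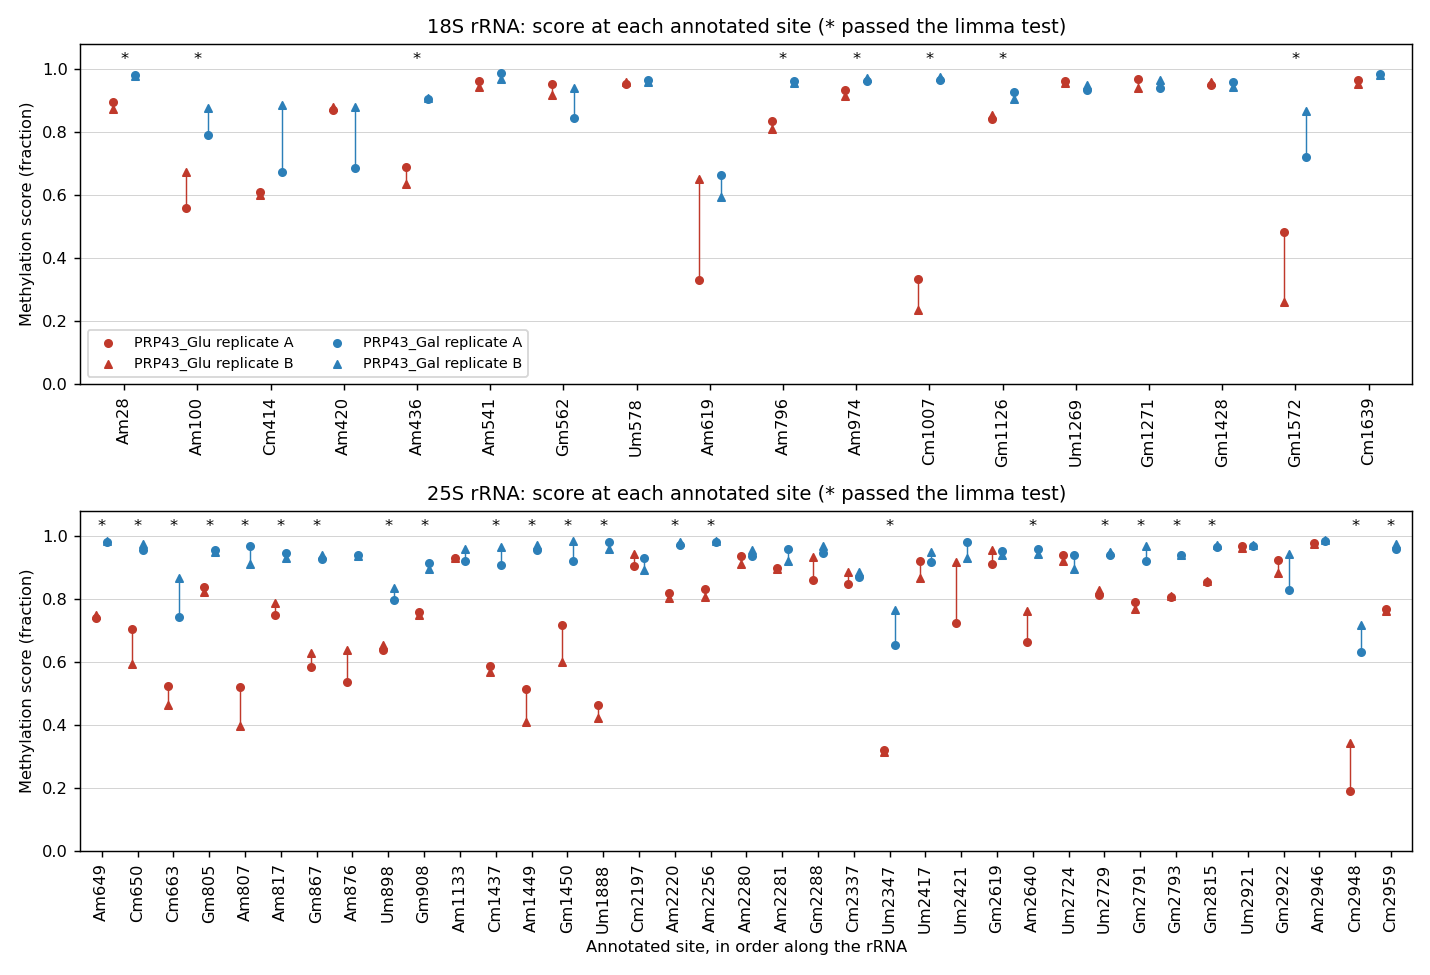
Methylation score (vertical axis, fraction) of each library at the annotated sites of 18S (top) and 25S (bottom), in order along the rRNA. Red marks are PRP43_Glu, blue marks PRP43_Gal, circles replicate A, triangles replicate B, the thin lines join duplicates, and an asterisk marks the 31 sites that passed; at all of these the red marks lie below the blue ones.

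Cm1007 of 18S, the target of snR79, fell most. Its scores were 0.334 and 0.235 in PRP43_Glu, against 0.967 and 0.976 in PRP43_Gal. The difference was -0.687 ± 0.0332 (SE; adjusted p = 5.09e-05), and the duplicates of each group lay close together beside it. In read ends, Cm1007 had 591 of 887 expected and 897 of 1172 expected in PRP43_Glu, against 88 of 2637 and 92 of 3873 in PRP43_Gal. The unprotected share was thus 25.1 times as large in PRP43_Glu, the largest such ratio among the 31 sites, whose median was 4.26 and whose smallest was 1.81 at Gm1126.

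Um1888 of 25S, the target of snR62, stands alone in its stretch of the rRNA. It scored 0.464 and 0.421 in PRP43_Glu and 0.982 and 0.958 in PRP43_Gal, a difference of -0.528 ± 0.0196 (SE; adjusted p = 3.85e-05). Read ends at Um1888 were 331 of 617 expected and 338 of 584 expected in PRP43_Glu, against 18 of 995 and 63 of 1507 in PRP43_Gal. Both PRP43_Glu libraries had more ends there than both PRP43_Gal libraries although they held fewer reads in all.

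**Figure D2:**
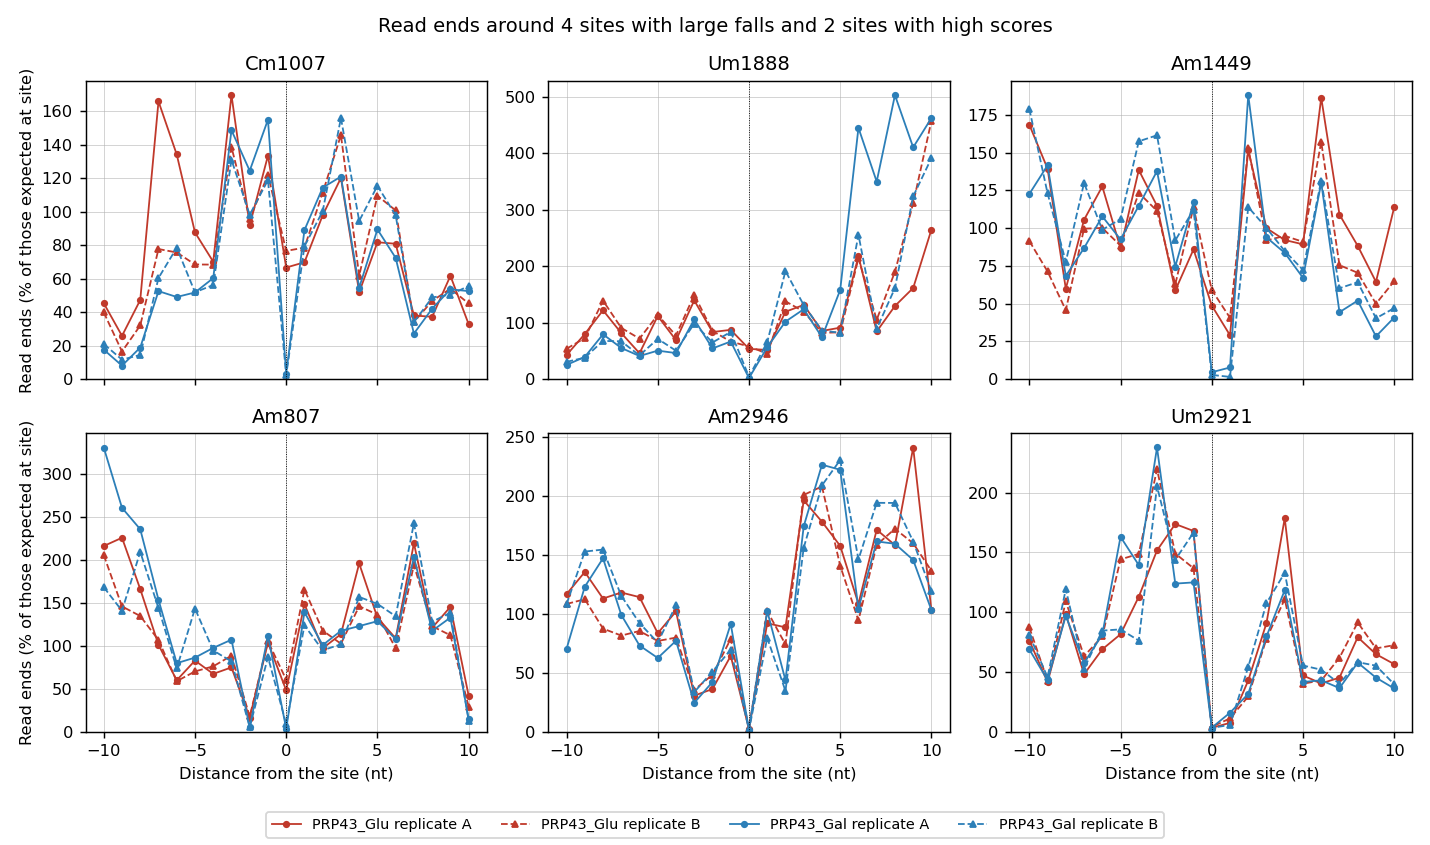
Read ends (vertical axis, percent of those expected at the central site, not on a shared scale) by distance from the site in nt (horizontal axis), for 4 sites with large falls and 2 sites with high scores. Red lines are PRP43_Glu, blue lines PRP43_Gal, solid with circles replicate A and dashed with triangles replicate B; at distance 0 the red lines stand between 47.9% and 76.5% and the blue lines between 1.81% and 8.82% at the 4 sites with falls, and all lines lie between 1.31% and 3.93% at Am2946 and Um2921.

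The guides encoded in introns of protein genes had targets that fell without exception. In the RefSeq annotation of yeast, 6 of the 42 guide genes lie inside a protein gene: U18 (SNR18) in EFB1, U24 (SNR24) in ASC1, snR38 in TEF4, snR39 in RPL7A, snR59 in RPL7B and snR54 in IMD4. EFB1 and TEF4 encode translation elongation factor subunits, ASC1 and the RPL7 genes ribosomal proteins, and IMD4 an enzyme of guanine nucleotide synthesis. Of their 8 target sites 8 were lower in PRP43_Glu, with a median difference of -0.305, against -0.135 over all 55 sites. From 3' ends alone Am807, Gm2815 and Am974 did not pass. U24 has 3 of these sites and U18 has 2, adjacent nucleotides among them, so the 8 are not separate observations. No test of the list was made.

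U24 has 3 targets in 25S, all within 13 nt. Am1449 scored 0.513 and 0.410 in PRP43_Glu and 0.955 and 0.972 in PRP43_Gal. Cm1437 scored 0.587 and 0.566 in PRP43_Glu and 0.908 and 0.966 in PRP43_Gal, and Gm1450 scored 0.717 and 0.601 in PRP43_Glu and 0.920 and 0.985 in PRP43_Gal. Am1449 and Gm1450 are adjacent nucleotides, and Gm1450 kept the higher score in both PRP43_Glu libraries (the difference between both sites was not tested).

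U18 directs methylation of the adjacent nucleotides Am649 and Cm650 of 25S. Am649 scored 0.739 and 0.748 in PRP43_Glu and 0.979 and 0.982 in PRP43_Gal, which makes an unprotected share 13.1 times as large. Cm650 scored 0.703 and 0.594 in PRP43_Glu and 0.955 and 0.974 in PRP43_Gal, a share 9.88 times as large. At both sites the groups were separate, and the duplicates of Am649 differed by less than those of Cm650.

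Am807, which snR39 and snR59 both guide, scored 0.521 and 0.397 in PRP43_Glu and 0.968 and 0.912 in PRP43_Gal (-0.481, 95% interval from -0.607 to -0.354; adjusted p = 0.000739). Gm2815, the target of snR38, fell by 0.111 and Am974, the target of snR54, fell by 0.0415. Am974 was the smallest change that passed, with 0.934 and 0.915 in PRP43_Glu and 0.962 and 0.971 in PRP43_Gal. Its call was lost in 10 of 20 alternatives, among them the fit of the PRP43 libraries alone.

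Guides from single genes with their own promoters formed the largest group of sites. Of their 26 sites 16 were lower in PRP43_Glu (61.5%, close to the 56.4% of all sites). The median difference was -0.157, against -0.135 over all 55 sites, and the list was not tested. Cm1007 and Um1888 belong here. Cm2948 of 25S, the target of snR69, scored 0.188 and 0.341 in PRP43_Glu and 0.632 and 0.715 in PRP43_Gal, and was incompletely methylated in both. Um2347, the target of snR65, scored 0.321 and 0.313 in PRP43_Glu and 0.654 and 0.765 in PRP43_Gal, and rests on the fewest expected read ends of all sites. It passed neither from 5' ends alone nor from 3' ends alone.

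Gm867, the target of snR50, scored 0.582 and 0.628 in PRP43_Glu and 0.927 and 0.938 in PRP43_Gal. Cm663, the target of snR58, scored 0.524 and 0.464 in PRP43_Glu and 0.743 and 0.867 in PRP43_Gal. Am436 of 18S, the target of snR87, scored 0.690 and 0.635 in PRP43_Glu and 0.904 and 0.909 in PRP43_Gal. At these 3 sites the lowest galactose library lay well above the highest glucose library when both read ends were used. From 3' ends alone Cm663 scored 0.589 in PRP43_Glu replicate A, above 0.549 in PRP43_Gal replicate A. It did not pass there (limma, adjusted p = 0.23).

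Am2640, the target of snR68, scored 0.663 and 0.763 in PRP43_Glu and 0.959 and 0.941 in PRP43_Gal. Am2256, the target of snR63, had a mean score of 0.819 ± 0.0183 in PRP43_Glu and 0.983 ± 0.00178 in PRP43_Gal (SD, n = 2 each). Gm805, the target of snR39B, fell by 0.123.

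Guides processed from polycistronic transcripts had both called and uncalled targets. In the RefSeq annotation 16 of the guide genes have another snoRNA gene within 1 kb, among them the row of 7 genes that holds snR72 to snR78. Of the 19 annotated target sites 7 were lower in PRP43_Glu (36.8%, against 56.4% of all sites), with a median difference of -0.0685. Both glucose libraries lay below the galactose libraries at 13 of the 19, beside 70.9% of all sites. No test of this list was made.

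Within this group Gm1572 of 18S, the target of snR57, changed most, with 0.482 and 0.260 in PRP43_Glu and 0.721 and 0.867 in PRP43_Gal. Its duplicates lay far apart in both groups (-0.423 ± 0.0949, SE; adjusted p = 0.0117), and the call was lost without PRP43_Gal replicate B and with edgeR on read ends (adjusted p = 0.0626). Um1269 and Am1133, whose guides snR55 and snR61 are encoded beside snR57, did not pass. Um1269 scored 0.961 and 0.956 in PRP43_Glu and 0.934 and 0.951 in PRP43_Gal, the single site at which both glucose libraries lay above both galactose libraries, and the 95% interval of its difference ran from -0.0771 to 0.109.

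Of the 7 targets of snR72 to snR78, 2 passed. Cm2959, the target of snR73, scored 0.767 and 0.762 in PRP43_Glu and 0.958 and 0.975 in PRP43_Gal, and Am28, the target of snR74, fell by 0.0963. Am796 of 18S, the target of snR53 from another cluster, fell by 0.135. Cm2959 passed from neither read end alone. Um578, Cm2197, Gm2288, Um2421 and Am876 did not pass.

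Am876, the target of snR72, had the largest difference that did not pass. It scored 0.534 and 0.637 in PRP43_Glu and 0.940 and 0.936 in PRP43_Gal (-0.352 ± 0.155, SE; adjusted p = 0.112). The PRP43 groups did not overlap, while the Delta_Dbp3 libraries, whose spread enters the fit, scored 0.708 and 0.214 at this site. The value of PRP43_Glu replicate A carries the authors' barcode correction. In the fit of the PRP43 libraries alone Am876 passed (adjusted p = 0.00591).

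The other sites with large differences that did not pass had wide duplicates in at least 1 group, in the scores used. Cm414, the target of U14, scored 0.610 and 0.599 in PRP43_Glu and 0.672 and 0.886 in PRP43_Gal. Am619, a target of snR47, scored 0.330 and 0.650 in PRP43_Glu and 0.664 and 0.594 in PRP43_Gal. Um2421, the target of snR78, scored 0.724 and 0.918 in PRP43_Glu and 0.981 and 0.931 in PRP43_Gal. The authors' barcode correction applies in 1 library of each group, so each pair sets a 5'-end score beside a score from both ends. From 5' ends alone Um2421 scored 0.927 and 0.918 in PRP43_Glu and 0.981 and 0.969 in PRP43_Gal. It was called lower there (limma, adjusted p = 0.0135). In the scores used, Am619 overlapped between the groups, and Cm414 and Um2421 were separated by less than the gap between the duplicates of 1 group. The difference at Am619 was -0.139, and -0.299 without PRP43_Glu replicate B. That at Cm414 was -0.174, and -0.281 without PRP43_Gal replicate A.

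**Figure D3:**
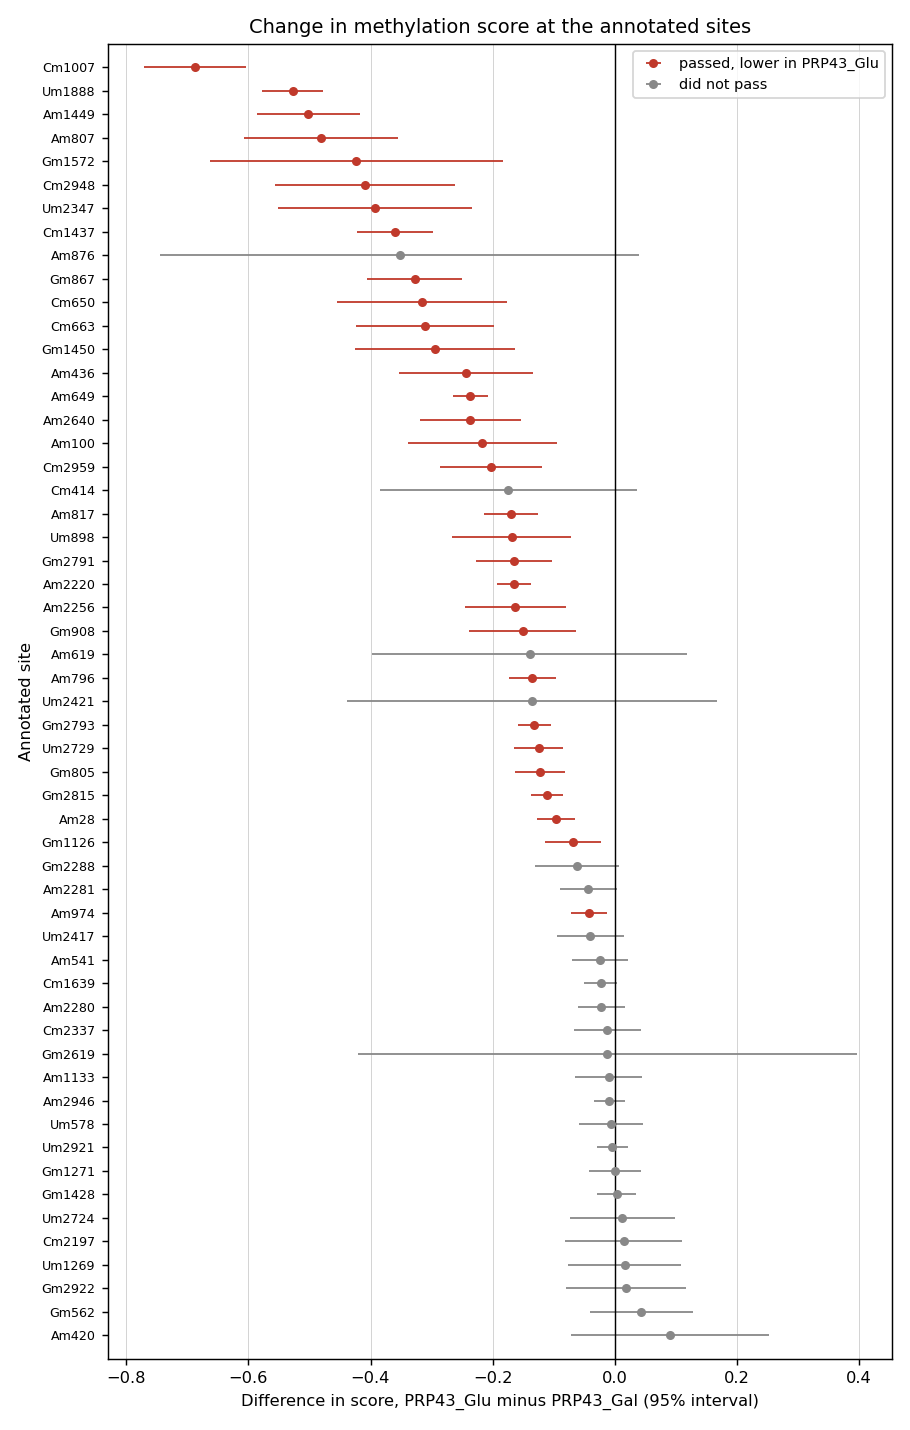
Difference in score, PRP43_Glu minus PRP43_Gal (horizontal axis), with its 95% interval from limma for each annotated site (vertical axis), most negative at the top. Red sites passed and all lie left of 0, from Cm1007 at -0.687 to Am974 at -0.0415; grey sites did not pass, and Am876 and Gm2619 have the widest grey intervals.

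A guide's targets did not always share the call. Of 11 guides with 2 or more annotated targets, 5 had every target lower (U18, U24, snR48, snR51 and snR60), 3 had 1 of 2 lower (snR40, snR41 and snR47) and 3 had none (snR13, snR52 and snR67). The place of snR51 depends on Am100, whose call was lost in 4 of 20 alternatives (3' ends alone, edgeR, the crossed replicate block and without PRP43_Gal replicate B). That of snR60 depends on Gm908, whose call was lost in 4 as well (5' ends alone and without either PRP43_Glu replicate or PRP43_Gal replicate A). From 3' ends alone Um2729, Am817 and Gm2791 lost theirs too, so that U18 and U24 alone kept all targets in each of these alternatives. Over their 23 sites 14 were lower, and 17 of the 30 sites of guides with 1 annotated target were lower.

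snR40 pairs with both rRNAs. Its 25S target Um898 scored 0.638 and 0.652 in PRP43_Glu and 0.795 and 0.834 in PRP43_Gal, a fall of 0.169. Its 18S target Gm1271 scored 0.968 and 0.939 in PRP43_Glu and 0.941 and 0.966 in PRP43_Gal, with a 95% interval of the difference from -0.0430 to 0.0422. Um898 depends on the read ends used: without the barcode correction, which replaced the value of PRP43_Gal replicate B, its difference was 0.0562 and did not pass.

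snR47 also pairs with both rRNAs. Its 25S target Am2220 scored 0.817 and 0.803 in PRP43_Glu and 0.971 and 0.979 in PRP43_Gal (-0.165 ± 0.0109, SE; adjusted p = 0.000155), while the 18S target Am619 given above was low in both groups and did not pass. snR51 had both targets lower, Am100 of 18S, with 0.559 and 0.673 in PRP43_Glu and 0.790 and 0.876 in PRP43_Gal, and Um2729 of 25S, which fell by 0.125. For snR41, Gm1126 fell by 0.0685 and Am541 did not pass. The call at Gm1126 was lost in 8 of 20 alternatives, among them 5' ends alone, 3' ends alone and edgeR on read ends. Whether 2 targets of a guide changed by different amounts was not tested.

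The targets of snR60, Am817 and Gm908, differed by -0.170 and -0.151, and those of snR48, Gm2791 and Gm2793, by -0.165 and -0.132, and all 4 passed. In each of these pairs both targets lie in 25S. The snR67 targets Gm2619 and Um2724 were at 0.933 ± 0.0294 and 0.929 ± 0.0132 in PRP43_Glu, against 0.945 ± 0.00976 and 0.917 ± 0.0329 in PRP43_Gal (SD, n = 2 each). For Gm2619 the interval of the difference ran from -0.420 to 0.396. The PRP43 duplicates lay close together there, while the Delta_Dbp3 libraries, whose spread enters the fit, scored 0.753 and 0.229.

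**Figure D4:**
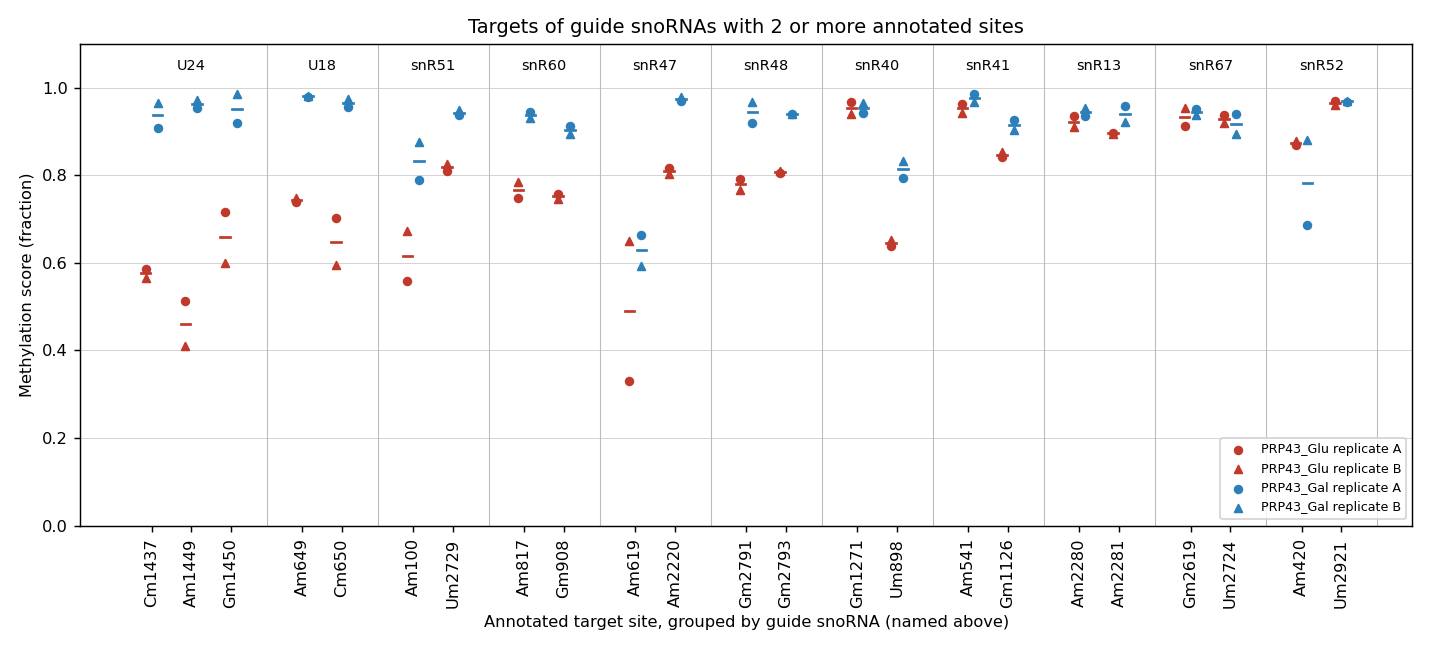
Methylation score (vertical axis, fraction) at the targets of the 11 guides with 2 or more annotated sites, grouped by guide and ordered by the guide's median difference. Red marks are PRP43_Glu, blue marks PRP43_Gal, circles replicate A, triangles replicate B and bars the group means; red and blue are farthest apart for U24 and U18 and overlap for snR67 and snR52.

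A set of sites stayed near complete in glucose. The 5 highest means in PRP43_Glu were those of Am2946, Um2921, Cm1639, Um1269 and Um578. Am2946 scored 0.978 and 0.975 in PRP43_Glu and 0.984 and 0.987 in PRP43_Gal. Cm1639, the target of snR70, scored 0.965 and 0.953 in PRP43_Glu and 0.983 and 0.981 in PRP43_Gal, and Um578, the target of snR77, scored 0.954 and 0.959 in PRP43_Glu and 0.966 and 0.959 in PRP43_Gal. None of the 5 passed, although at Am2946 and Cm1639 both glucose libraries lay below the galactose ones. Cm1639 was called lower on log2 odds (adjusted p = 0.0337), with trend and robust moderation (0.00858) and with edgeR on read ends (0.00374). Am2946, the target of snR71, had 21 read ends of 947 expected and 34 of 1377 in PRP43_Glu, against 38 of 2384 and 44 of 3364 in PRP43_Gal. It stands 2 nt from Cm2948, whose mean was 0.264 in PRP43_Glu and 0.674 in PRP43_Gal, so a fall and a near-complete site were read from the same stretch of the same libraries. The 95% interval of the difference at Am2946 ran from -0.0345 to 0.0167.

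Um2921 and Gm2922 are neighbours in the A loop of the peptidyl transferase centre, and Gm2922 is methylated by the protein Spb1 without a guide RNA. Um2921, a target of snR52, scored 0.969 and 0.961 in PRP43_Glu and 0.968 and 0.970 in PRP43_Gal. Gm2922 scored 0.923 and 0.881 in PRP43_Glu and 0.826 and 0.941 in PRP43_Gal. Neither passed, with intervals of the difference from -0.0290 to 0.0214 and from -0.0794 to 0.117. Am420, the other target of snR52 and the site with the largest upward difference, scored 0.869 and 0.878 in PRP43_Glu and 0.686 and 0.881 in PRP43_Gal, so that this difference rests on PRP43_Gal replicate A. Without PRP43_Gal replicate B, Am420, Gm2922 and Gm562, to which no guide is assigned here, were called higher (adjusted p = 0.0122, 0.0473 and 0.0245).

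By rRNA, 23 of 37 sites were lower in 25S and 8 of 18 in 18S. Along 25S, 12 of 14 sites in the 5' part were lower, with a median difference of -0.302, and 11 of 23 in the 3' part, with a median of -0.111. All sites were lower in the group from Am649 to Cm663, in that from Cm1437 to Gm1450 and in that from Gm2791 to Gm2815. Of the 8 sites from Cm2197 to Um2347, 3 were lower. In 18S, none of the 4 sites from Am541 to Am619 passed.

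By base, 12 of 20 Am, 6 of 10 Cm, 9 of 15 Gm and 4 of 10 Um sites were lower. By level in galactose, 14 of 23 sites with a mean of at least 0.95 in PRP43_Gal were lower, 11 of 20 from 0.9 to 0.95 and 6 of 12 under 0.9. Except for the Um sites, at 40%, these shares lie close to the 56.4% of all sites. Sites that were nearly complete in galactose were among both the largest falls and the smallest differences.

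The 2 kinds of read end are separate counts of the same cuts. Among the 31 called sites the mean score from 5' ends alone was lower in PRP43_Glu at 31 and that from 3' ends alone at 30, the exception being Um898. Both glucose libraries lay below both galactose libraries from 5' ends at 31 and from 3' ends at 28 of them. From 3' ends alone 18 sites passed.

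The scan of single nucleotides with edgeR on read ends called 6 of 5167 nucleotides (0.116%), all among the 50 annotated ones it covered. Of the 5117 others 0 were called (0.0%), 107 had an unadjusted p under 0.05, and DESeq2 called 1. The 6 were Cm1007, Am1449, Am649, Um1888, Gm867 and Am2220, all with more read ends in PRP43_Glu. The minimum of 50 read ends was a mean over all 8 libraries, PRP43_Glu included. Um1888, with 6 to 63 read ends in the other groups, and Am2220, with 24 to 64, reached it only through PRP43_Glu. Their entry was thus not independent of the comparison. Am974, Cm1639, Cm2337, Um2921 and Am2946 stayed under the minimum and were not scanned. The edgeR scan lost all 6 without PRP43_Gal replicate B, called 2 without either PRP43_Glu replicate and 3 without PRP43_Gal replicate A. Among other settings, the replicate block called 4 annotated nucleotides and a minimum of 200 read ends called 3 of 21 covered. Apart from fits without a Delta_Dbp3 or WT library, the rest called from 13 with no minimum of read ends to 20 with DESeq2. A crossed replicate block, added after seeing the data, called 29 annotated and 30 other nucleotides. The largest score difference among the others was at G1973 of 25S, with 0.665 and 0.749 in PRP43_Glu and 0 and 0.313 in PRP43_Gal (adjusted p = 0.999). A255 of 25S scored 0.0626 and 0.279 in PRP43_Glu and 0.690 and 0.714 in PRP43_Gal, and C1215 of 18S 0.0179 and 0.193 in PRP43_Glu and 0.598 and 0.628 in PRP43_Gal (adjusted p = 0.957 and 0.441).

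The change in the PRP43 strain was also set against the change in the other helicase mutant, Delta_Dbp3 against WT, in the same limma fit. The changes differed at 23 of 55 sites (41.8%), and at 19 of these the score changed further downward in PRP43_Glu. On log2 odds 10 sites differed and with edgeR on read ends 7. Values below are the change in the PRP43 strain minus that in Delta_Dbp3.

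Cm1007 and Um1888 differed most, by -0.685 ± 0.0469 and -0.499 ± 0.0277 (SE; adjusted p = 0.000473 and 0.000319). Cm1007 scored 0.947 and 0.970 in Delta_Dbp3 and 0.953 and 0.967 in WT, and Um1888 scored 0.939 and 0.965 in Delta_Dbp3 and 0.984 and 0.976 in WT, a change of -0.00165 and of -0.0284 that did not pass at either site. At 4 sites the difference ran the other way, Um1269 (0.413), Gm908 (0.248), Um2724 (0.207) and Am817 (0.124). Of these, Gm908 and Am817 also fell in PRP43_Glu, and both are targets of snR60.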

How the data were processed

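RiboMeth-seq libraries of 4 groups of 2 were analysed from the deposited tables, with groups as labelled. Cutadapt 2.0 and Bowtie2 2.3.4.1 were used, per the submitters' processing notes, and their parameters and the genome build are not given here. Per the file headers, the deposited counts are reads with their 5' or 3' end at each nucleotide, and the deposited score is a fraction from 0 to 1. Recomputed and deposited scores of 18S and 25S differed by at most 5.00e-10 over 41376 values. In the authors' table of group means 6 of 220 means needed the 5'-end score in 1 library to match within 1e-06 (a barcode correction, per the file headers), and these values were kept. PRP43_Glu and Delta_Dbp3 libraries carried the same barcodes, and PRP43_Gal others, so barcode and group cannot be told apart.

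Scores at 55 sites were fitted with limma 3.58.1 in R 4.3.3 over all 8 libraries, without a block, with Benjamini-Hochberg adjustment. P-values measure the spread between these libraries only. The scan fitted read ends with edgeR 4.0.16 (quasi-likelihood), with expected ends as the offset and without the barcode correction. Nucleotides averaging 50 ends or more over all 8 libraries entered it. A call needed both an adjusted p under 0.05 and a score that differed by 0.1 or more. DESeq2 1.42.0 was an alternative. Falls were simulated in a random part of the 55 sites, fewer than were called in the data. Those of 0.1 and 0.3 were recovered by limma at 43% and 88.2%. For the scan, read ends were multiplied at nucleotides drawn at random from all 5167. Those multiplied by 2 and by 4 were recovered at 28% and 96%. No minimum score difference was asked of these calls, and recovery at the annotated sites alone was not simulated.

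Values in every library were given for passing sites with a difference of at least 0.2, targets of U18 and U24, Um2921 and Gm2922, the 5 largest differences that did not pass and the highest means in PRP43_Glu. Sites sharing a guide, and the smallest change that passed, were given in the same way. Members and lists were chosen with earlier results of these data known. Guide assignments are general knowledge of yeast snoRNAs, and all 42 guide genes were found in the RefSeq table (assembly R64). Tables were made in Python 3.11.15.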

Additional observations from a re-analysis of the deposited data

Results flagged for a closer look

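The PRP43 tables also hold small RNAs that enter no comparison above. Read ends on U2, the spliceosomal RNA that pairs with the branch point, came to 0.0827% and 0.0866% of those on 18S and 25S in PRP43_Glu, against 0.0348% and 0.0314% in PRP43_Gal, 2.56 times as many. Those on U1, which pairs with the 5' splice site, came to 0.0251% and 0.0258% in PRP43_Glu, against 0.0209% and 0.0188% in PRP43_Gal, 1.28 times as many. Both were singled out because the glucose libraries lay above the galactose libraries. Neither difference was tested, and 2 libraries against 2 allow no exact two-sided p under 0.333.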

How the results depend on the processing

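The count of 31 lower sites stayed between 27 and 32 in all alternatives but 1, 18 from 3' ends alone; it was 30 with the replicate block. The count of higher sites was 0 except for 1 with edgeR on read ends (Am541, 2.85 on the log2 scale, where the corrected scores gave -0.0245) and, among fits without 1 library, a range from 0 to 3. Of the 31 called sites, 16 kept their call in the 20 alternatives that refit the scores or read ends. Of these 16, Am28 would not meet a minimum difference of 0.1, which left 28 of the 31. Um898 changed sign from 3' ends (0.160), without the barcode correction (0.0562) and with edgeR (0.212 on the log2 scale), and passed in none of these. All 3 use the 3' ends of PRP43_Gal replicate B, where Um898 scored 0.141, against 0.786 in PRP43_Gal replicate A. From 5' ends alone it scored 0.684 and 0.744 in PRP43_Glu and 0.835 and 0.834 in PRP43_Gal. Its call was lost in 6 of the 20 alternatives. The count of sites whose change differed from that in Delta_Dbp3, 23 above, was 10 on log2 odds, 11 from 3' ends and 7 with edgeR, and 15 to 24 with a library left out (the lowest was without WT replicate B). In the scan, the 6 annotated calls became 13 when no minimum was set, 3 (of 21 covered) at 200 read ends, 13 with 2 neighbours, 19 with only the groups compared, 15 with limma, 20 with DESeq2 and 4 with the replicate block. They ranged from 0 to 8 with a library left out. DESeq2 called 1 other nucleotide. The causes were not tested. Fits of read ends, the scan among them, took no barcode correction. At Am541 that correction replaced 0.349 by 0.987 in PRP43_Gal replicate A. Deviations of libraries of the same letter in PRP43_Glu and PRP43_Gal were weakly and negatively correlated (r = -0.276 over 55 sites). The other pairs of groups ran from -0.242 to 0.327. A crossed replicate block, added after seeing the data, called 29 lower sites, and in the scan 29 annotated and 30 other nucleotides.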

Other observations

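Read ends on 5.8S rRNA came to 7.11% and 7.87% of those on 18S and 25S in PRP43_Glu, against 15.9% and 10.2% in PRP43_Gal, with no overlap and no test. Those on U4, U5 and U6 overlapped between the groups. The tables list U3 and U14 at 0 in all 4 PRP43 libraries.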
